A study of Mus musculus with 6 samples.

Results

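Epithelial cells are held together by E-cadherin (Cdh1), a calcium-dependent adhesion protein of adherens junctions, and by Epcam, an epithelial adhesion protein. During an epithelial-to-mesenchymal transition (EMT), cells lose these proteins and often gain N-cadherin (Cdh2), which is also the main cadherin of the neural plate, so that neural induction from stem cells includes a change from Cdh1 to Cdh2. The transcription factors Snai1, Snai2, Zeb1, Zeb2 and Twist1 drive such transitions, and the Snai and Zeb proteins bind E-box sequences and repress Cdh1. These 8 genes, 3 of the cell surface and 5 transcription factors, were followed by name, and all 8 were found among 52636 gene identifiers and had enough reads to be tested.

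RNA was sequenced from the mouse embryonic stem cell line E14 after 4 days with retinoic acid, a vitamin A product under which stem cells leave pluripotency and take up neural fates. Retinoic acid was given at 5 µM, written µm in the labels, in medium without the LIF and the MEK and GSK3 inhibitors in which the stem cells had been grown. The enhancer cluster knockout (KO) cells lacked a cluster of enhancers that the series title links to HoxB genes, and wild-type (WT) E14 cells were their comparison. There were 3 libraries of each, called biological replicates by the series' design text, and how many clones they came from, or where the deletion lies, is not given in the labels.

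The libraries held 7780368 to 9472916 reads assigned to genes. KO replicate 1 stood apart by its reads from ribosomal RNA loci, 1.04% of its counts against 0.0726 to 0.118% in the other 5 libraries. Mitochondrial genes held 2.58 to 2.89% of counts in KO and 1.68 to 1.73% in WT libraries. Of 15816 genes tested, 10848 changed at an adjusted p under 0.05, so a call by itself says little about any gene here. Of 10 neural progenitor markers, 7 could be tested. Pax6, Msi1 and Zbtb16 rose and Nes, Sox2 and Sox3 fell, a called share of 85.7% against 68.6% of all genes. The summed level of all 10 was 105 to 117 CPM (counts scaled to library size) in KO and 344 to 357 CPM in WT libraries. That difference lay mainly in Nes, whose values follow, and in Sox2, at 26.66 CPM in KO and 74.91 CPM in WT. Sox2 is also among the pluripotency markers. Fabp7, a lipid carrier of neural progenitors, had 0 counts in all 6 libraries, and Sox1, an early neural factor, stood at 1.84 ± 0.607 CPM in KO and 1.98 ± 0.521 CPM in WT (SD, n = 3 each). Of 16 endoderm markers, 12 rose and 2 fell, a called share of 87.5% against 68.6% of all genes. The 2 that fell were Sox17, by 0.65 (SE 0.12), and the scarce Thbd, by 0.935 (SE 0.388), at 1.26 CPM in KO and 2.42 CPM in WT. Foxa2 and Ttr did not pass. The endoderm markers summed to 12800 to 13100 CPM in KO and 4600 to 4640 CPM in WT libraries. Most of this sum came from the matrix genes Col4a1 (4920 CPM in KO, 1902 CPM in WT), Lamb1 (2900 and 875.1 CPM) and Lama1 (2811 and 932.9 CPM). Among the neural markers counted in both groups, Nes, a neural progenitor filament, averaged 33.62 CPM in KO and 231.4 CPM in WT libraries. Msi1, an RNA-binding protein, averaged 34.92 CPM in KO and 27.48 CPM in WT libraries. In bulk RNA, fewer cells of a type and less RNA per cell cannot be told apart, and the part of these markers in the results that follow was not tested.

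The promoters of Epcam, Snai1 and Twist1 are printed to show the core E-box bound by Snai and Zeb proteins, CACCTG or its reverse complement CAGGTG, which was searched for in the promoters of 4 of the 8 genes, these 3 and Zeb2. The promoters of the other 4 were not examined here. Each run holds the 250 bases before an annotated start on the gene's strand, from RefSeq on GRCm38.p6, with E-box matches in capitals. They are chr17:87635729-87635978 (plus strand) for Epcam, chr2:167537945-167538194 (plus strand) for Snai1 and chr12:33957421-33957670 (plus strand) for Twist1.
Epcam: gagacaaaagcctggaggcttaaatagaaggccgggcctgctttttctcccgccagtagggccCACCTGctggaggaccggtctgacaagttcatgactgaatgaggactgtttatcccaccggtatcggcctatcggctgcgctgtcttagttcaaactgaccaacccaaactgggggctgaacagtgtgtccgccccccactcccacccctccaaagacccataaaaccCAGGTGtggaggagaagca
Snai1: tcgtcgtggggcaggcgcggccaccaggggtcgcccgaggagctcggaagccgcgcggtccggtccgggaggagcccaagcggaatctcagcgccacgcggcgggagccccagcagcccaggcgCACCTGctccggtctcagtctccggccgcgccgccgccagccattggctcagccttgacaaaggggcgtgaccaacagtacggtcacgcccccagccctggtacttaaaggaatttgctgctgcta
Twist1: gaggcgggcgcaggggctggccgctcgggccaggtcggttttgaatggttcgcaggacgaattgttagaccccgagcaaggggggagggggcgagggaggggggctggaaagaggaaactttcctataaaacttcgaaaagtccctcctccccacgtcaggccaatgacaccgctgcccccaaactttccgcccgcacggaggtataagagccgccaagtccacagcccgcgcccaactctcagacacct

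The Epcam window held 2 matches, whose first bases lie 187 and 19 bases upstream of the start, and the Snai1 window held 1, at 126 bases upstream. No match was found in the Twist1 window or in the windows of the 4 annotated starts of Zeb2. Of 32851 promoter windows of this length, 17.2% held at least 1 match and 2.06% held at least 2. A match is a run of letters and does not show that a factor binds there, and with 4 genes searched, matches were not set against the direction of change.

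All 8 genes differed between KO and WT cells, and they did not move as a single epithelial or mesenchymal set. Cdh2, Zeb2, Twist1, Zeb1 and, slightly, Cdh1 fell, while Snai2, Epcam and Snai1 rose. For each gene the 3 KO values lay on one side of the 3 WT values. Among all genes tested, 68.6% were called (34.5% higher and 34.0% lower in KO), and the groups did not overlap in 70.9% (35.5% with KO higher and 35.4% with KO lower), so the calls and the separation are common in these data. Where the genes differed from one another was in the size and direction of the change. A larger absolute change was found in 7.54% of tested genes for Zeb2, 19.7% for Epcam, 27% for Snai1, 32.8% for Twist1 and 38.6% for Zeb1. For Cdh1, Cdh2 and Snai2 this share is given below. The median log2 fold change of the 8 genes was -0.47, against 0.0091 over all genes tested. Without KO replicate 1, the library with more ribosomal RNA reads, all 8 still passed in the same direction, with log2 fold changes of -0.30 for Cdh1, -1.51 for Cdh2, 1.02 for Epcam, 0.82 for Snai1, 2.13 for Snai2, -0.74 for Zeb1, -1.71 for Zeb2 and -0.69 for Twist1.

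**Figure D1:**
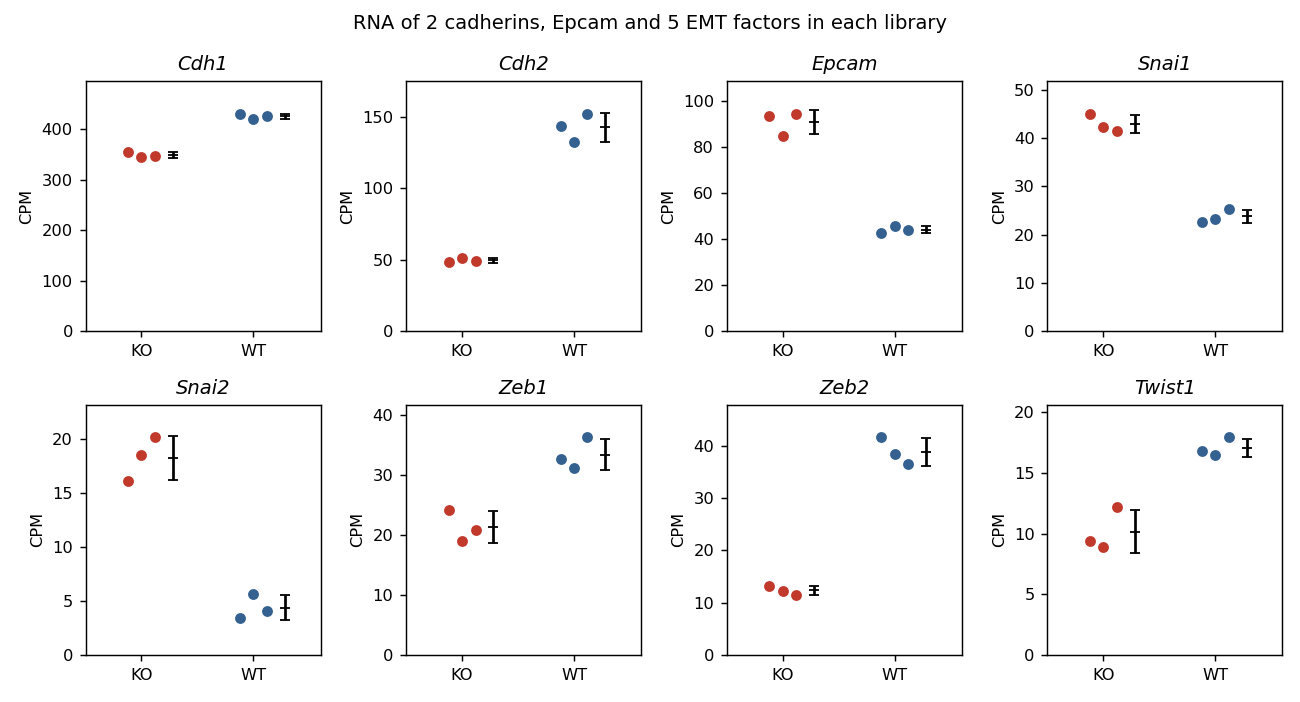
CPM of each gene (y axis, from 0, own scale per panel) in the 3 KO and 3 WT libraries, with mean and SD as black bars. Epcam, Snai1 and Snai2 stand higher in every KO library than in any WT library, and the other 5 genes stand lower.

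Cdh1 (ENSMUSG00000000303, chromosome 8, 106603351 to 106670246, GRCm38) encodes E-cadherin, which is also the cadherin of undifferentiated stem cells. It had 355, 345 and 347 CPM in KO replicates 1 to 3, against 431, 420.4 and 426 CPM in WT replicates 1 to 3. Every KO library was lower than every WT library, but by little, with means of 349 ± 5.36 CPM in KO and 426 ± 5.43 CPM in WT (SD, n = 3 each). The log2 fold change was -0.29 (SE 0.037, adjusted p = 1.54e-07 from the quasi-likelihood test of edgeR, Benjamini-Hochberg), and 68.5% of the genes tested had a larger absolute change. This gene was well counted and its libraries lay close together, with a spread of 1.53% of the mean in KO and 1.27% in WT libraries. Counting alone gives more, 1.88% in KO and 1.65% in WT, and the call comes from the edgeR fit and not from these spreads alone.

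Cdh2 (ENSMUSG00000024304, chromosome 18, 16588877 to 16809246) encodes N-cadherin, found on neural progenitors and mesenchymal cells. It stood at 48.4, 51.5 and 48.8 CPM in KO replicates 1 to 3, against 143.8, 132 and 152 CPM in WT replicates 1 to 3. The KO libraries lay close together and far below the lowest WT library, a gap of 80.9 CPM. Cdh2 fell by 1.52 on the log2 scale (SE 0.057, edgeR adjusted p = 3.96e-18), to 0.348 of its WT level, and only 9.09% of tested genes had a larger absolute change.

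Epcam (ENSMUSG00000045394, chromosome 17, 87635979 to 87651129) encodes an adhesion protein of epithelia and of stem cells. It had 93.4, 84.9 and 94.6 CPM in KO replicates 1 to 3, against 42.6, 46.0 and 44.2 CPM in WT replicates 1 to 3. Every KO library stood far above every WT library. Epcam rose 2.06-fold, a log2 fold change of 1.04 (SE 0.065, edgeR adjusted p = 1.80e-13). Epcam and Cdh1, both epithelial, therefore changed in opposite directions, and the ratio of Epcam to Cdh1 in TPM, counts divided by exon length and scaled to a fixed total per library, was 0.543 ± 0.0281 in KO and 0.216 ± 0.0110 in WT libraries (SD, n = 3 each).

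The balance of the 2 cadherins was measured within each library, where library scaling plays no part. The ratio of Cdh1 to Cdh2 in TPM was 12.9, 11.8 and 12.5 in KO replicates 1 to 3, against 5.29, 5.60 and 4.93 in WT replicates 1 to 3. Cdh1 RNA was thus the more abundant in every library of both groups, and its lead was larger in KO cells, with means of 12.4 ± 0.570 in KO and 5.27 ± 0.334 in WT (SD, n = 3 each). On the log2 scale the ratio was 1.24 higher in KO, a difference in which gene length plays no part. The ratio itself depends on the length used, and with the longest coding transcript, an alternative chosen after seeing the data, it was 7.7 ± 0.353 in KO and 3.27 ± 0.207 in WT (SD, n = 3 each). Since Cdh1 itself fell, the larger ratio came with the fall of Cdh2 and not with a rise of Cdh1.

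**Figure D2:**
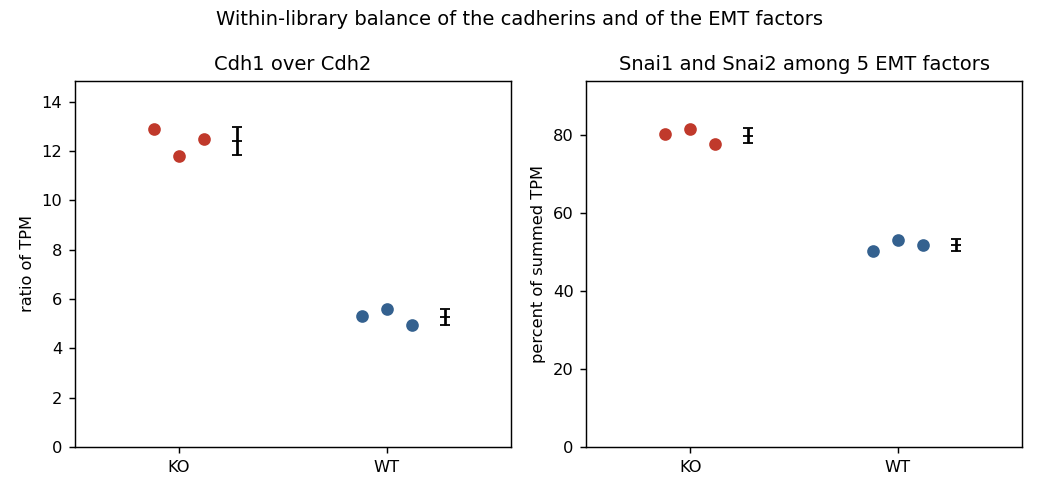
Ratio of Cdh1 to Cdh2 TPM (left) and share of Snai1 and Snai2 in the summed TPM of 5 EMT factors (right) in each KO and WT library, both axes from 0, with mean and SD as black bars. The KO ratios are 11.8 to 12.9 and the WT ratios 4.93 to 5.60, and the KO shares are 77.9 to 81.7% against 50.2 to 53.2% in WT. With the longest coding transcript as length, the mean ratio is 7.7 in KO and 3.27 in WT, and the mean share 76% in KO and 45.1% in WT.

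The Snai factors are zinc finger repressors. Snai1 (ENSMUSG00000042821, chromosome 2, 167538195 to 167542814), needed for gastrulation in the mouse, had 45.1, 42.3 and 41.5 CPM in KO replicates 1 to 3, against 22.7, 23.3 and 25.4 CPM in WT replicates 1 to 3. The groups did not overlap and Snai1 rose 1.8-fold, a log2 fold change of 0.85 (SE 0.091, edgeR adjusted p = 6.57e-09). Snai2 (ENSMUSG00000022676, chromosome 16, 14705852 to 14709385), known for its role in neural crest, had 16.1, 18.5 and 20.1 CPM in KO replicates 1 to 3, against 3.43, 5.64 and 4.05 CPM in WT replicates 1 to 3. It was scarce in WT, with 29 to 53 reads per library, and had 125 to 172 reads in KO libraries. Snai2 rose 4.13-fold, a log2 fold change of 2.05 (SE 0.18, edgeR adjusted p = 1.365e-10), and 4.24% of tested genes had a larger absolute change. The ratio of Snai1 to Snai2 in TPM was accordingly 2.97 ± 0.473 in KO and 7.08 ± 1.68 in WT libraries (SD, n = 3 each).

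The Zeb factors carry zinc fingers and a homeodomain, and Zeb2 also acts in neural development. Zeb2 (ENSMUSG00000026872, chromosome 2, 44983632 to 45117395) had 13.3, 12.2 and 11.5 CPM in KO replicates 1 to 3, against 41.6, 38.4 and 36.4 CPM in WT replicates 1 to 3. The fall was the largest of the 8 genes, with a log2 fold change of -1.66 (SE 0.11, edgeR adjusted p = 7.38e-13), to 0.317 of the WT level. Zeb1 (ENSMUSG00000024238, chromosome 18, 5591860 to 5775467) had 24.1, 19.0 and 20.7 CPM in KO replicates 1 to 3, against 32.6, 31.2 and 36.2 CPM in WT replicates 1 to 3. Its groups were also apart but closer, and it fell by 0.65 on the log2 scale (SE 0.11, edgeR adjusted p = 8.36e-06). Antisense exons overlap 1.93% of the annotated exon bases of Zeb1, 3.27% of those of Zeb2 and 0% of those of the other 6 genes, and the part of antisense reads in these counts was not tested.

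Twist1 (ENSMUSG00000035799, chromosome 12, 33957671 to 33959829) encodes a basic helix-loop-helix factor of mesoderm and cranial neural crest. It had 9.41, 8.86 and 12.2 CPM in KO replicates 1 to 3, against 16.8, 16.5 and 17.9 CPM in WT replicates 1 to 3. KO replicate 3 lay nearest to the WT libraries, still 4.3 CPM below the lowest of them. Twist1 fell by 0.74 on the log2 scale (SE 0.15, edgeR adjusted p = 6.92e-05). With 71 to 104 reads per KO library it was thinly counted, and its spread in KO, 17.5% of the mean, exceeded the 11% that counting alone gives. In WT the spread of Twist1 was below counting, 4.41% against 8.23%. A spread above counting was not particular to Twist1. It was 26.1% against 16.2% for Snai2 in WT, 7.02% against 2.85% for Cdh2 in WT and 12.2% against 7.62% for Zeb1 in KO.

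**Figure D3:**
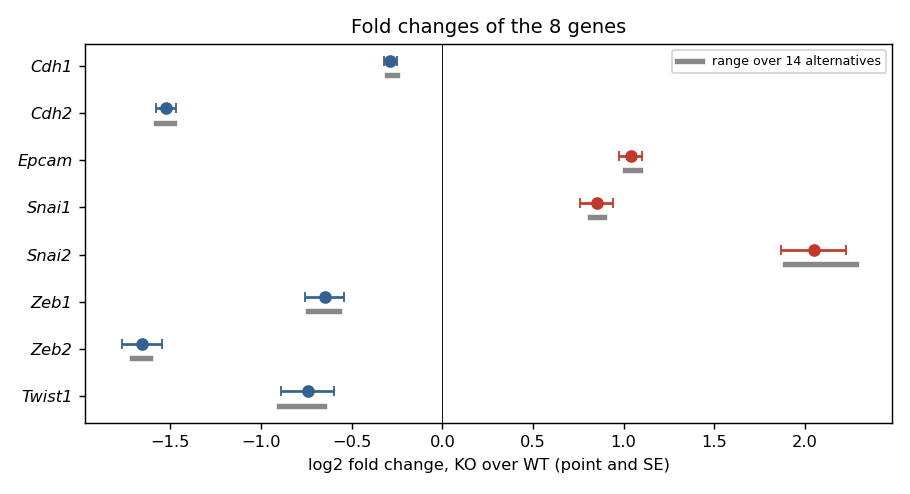
Log2 fold change, KO over WT (x axis), of each of the 8 genes (y axis) with its SE, and below it in grey the range over 14 alternative settings or left-out libraries. Points right of 0 are higher in KO. Snai2 lies highest at 2.05 and Zeb2 lowest at -1.66, and no range crosses 0.

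The 5 factors thus separated into Snai1 and Snai2, which were higher in KO, and Zeb1, Zeb2 and Twist1, which were lower. Summed over the 5 factors, TPM was 140 ± 9.34 in KO and 106 ± 4.75 in WT libraries (SD, n = 3 each). Snai1 and Snai2 made up 80.3, 81.7 and 77.9% of this sum in KO replicates 1 to 3, against 50.2, 53.2 and 51.9% in WT replicates 1 to 3. The groups did not overlap. With the longest coding transcript as length, the share was 76 ± 1.77% in KO and 45.1 ± 1.61% in WT (SD, n = 3 each).

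Levels of different genes were compared as TPM, with length taken as all annotated exons of a gene. In KO libraries the order of mean TPM was Cdh1 at 239.7, Epcam at 130.1, Snai1 at 83.1, Snai2 at 28.5, Twist1 at 19.7, Cdh2 at 19.4, Zeb1 at 6.48 and Zeb2 at 1.94. There, the ranges of Snai2 and Twist1 overlapped, as did those of Twist1 and Cdh2, and the other neighbours were apart. In WT libraries the order was Cdh1 at 303, Epcam at 65.6, Cdh2 at 57.7, Snai1 at 47.8, Twist1 at 34.1, Zeb1 at 10.6, Snai2 at 7.05 and Zeb2 at 6.34, and there only the ranges of Snai2 and Zeb2 overlapped. Cdh2 thus had rank 6 in KO and rank 3 in WT, while Snai2 had rank 4 in KO and rank 7 in WT. The place of the genes with long annotated exons depends on the length used. With the longest coding transcript, an alternative chosen after seeing the data, Cdh2 came before Epcam in WT (69.8 ± 5.05 and 51.3 ± 1.96 TPM) and before Snai2 in KO (23.5 ± 1.67 and 20.8 ± 3.17 TPM), and Snai2 came last in WT.

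**Figure D4:**
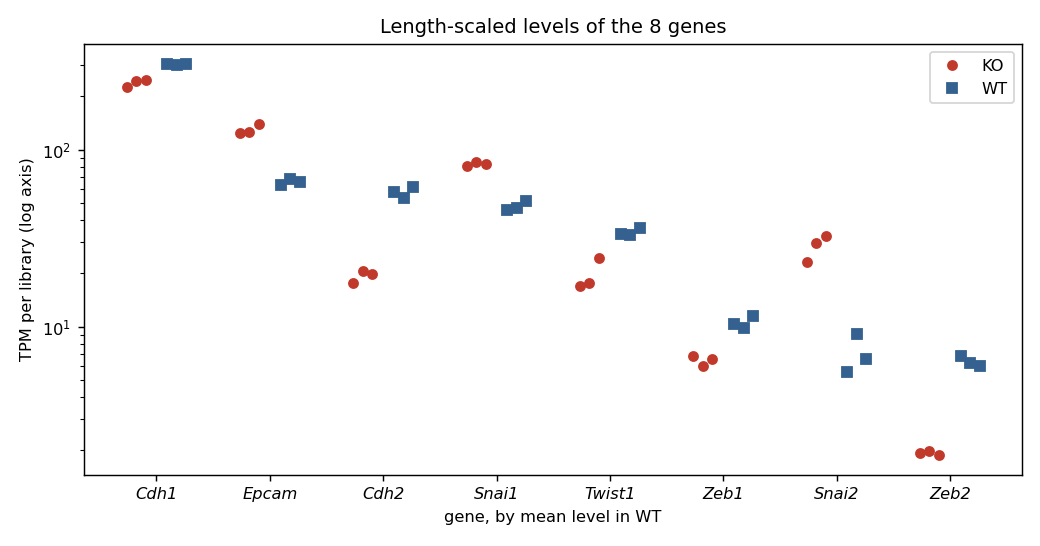
TPM per library on a log axis for the 8 genes, ordered by mean WT level, with KO as circles left of WT as squares. Cdh2, Zeb2, Zeb1, Twist1 and Cdh1 are lower in KO, and Snai2 in KO, at 23.3 to 32.5 TPM, lies above its WT range of 5.52 to 9.08 TPM.

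Genes that carry out or accompany these transitions were then counted in lists. Of 13 tested regulators of the epithelial state, 9 rose and 2 fell, a called share of 84.6% against 68.6% of all genes, with a median log2 fold change of 0.39 against 0.0091. Esrp1, a splicing factor of epithelial isoforms, had 44.8, 46.0 and 44.6 CPM in KO replicates 1 to 3, against 9.46, 9.36 and 9.57 CPM in WT replicates 1 to 3, and rose by 2.25 on the log2 scale (SE 0.11). Its paralog Esrp2 fell by 0.99 (SE 0.13), so the 2 splicing factors changed in opposite directions, and gene counts do not show isoforms. Rbm47, an RNA-binding protein, rose by 2.05 (SE 0.11), Elf3, an epithelial ETS factor, by 1.07 (SE 0.072), and Spint2, a protease inhibitor of epithelia, by 0.83 (SE 0.046). Grhl3, an epidermal factor, fell by 1.14 (SE 0.20), while Grhl2 at -0.34 and Ovol2 at -0.65, both of which oppose EMT, did not pass the test.

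Of 24 epithelial genes that are usually lowered in EMT, 7 rose, 10 fell and 7 did not pass (median -0.04). The claudin Cldn7, which binds Epcam, rose by 0.77 (SE 0.11), and the tight junction genes Ocln and Tjp3 rose by 1.21 (SE 0.14) and 2.13 (SE 0.22). In contrast the simple keratins Krt8, Krt18 and Krt19 fell by 1.29 (SE 0.029), 0.82 (SE 0.034) and 0.87 (SE 0.046). The share called, 70.8%, was close to the 68.6% of all genes.

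Of 21 tested genes usually raised in EMT, 14 fell and 4 rose, a called share of 85.7% against 68.6% of all genes, and the median was -1.4. Vim, the intermediate filament of mesenchymal cells, stood at 168, 172 and 178 CPM in KO replicates 1 to 3, against 996, 981.5 and 1005 CPM in WT replicates 1 to 3, a log2 fold change of -2.53 (SE 0.036). Acta2, smooth muscle actin, fell by 3.65 (SE 0.044) and Tagln, an actin-binding protein, was at -3.07 (SE 0.038), with 67.9% of its exon bases overlapped by antisense exons. The 4 that rose included Sparc, a matrix protein abundant in parietal endoderm, at 1.26 (SE 0.021), Mmp2, a matrix protease, at 1.85 (SE 0.11) and Col1a2 at 1.24 (SE 0.13). In the same KO libraries 12 of 16 endoderm markers rose, as given above, with Lamb1, a laminin chain, at 2900 ± 42.4 CPM in KO and 875.1 ± 18.7 CPM in WT (SD, n = 3 each). Of 6 tested fibroblast markers, 1 rose and 4 fell (83.3% called, against 68.6% of all genes). Col1a1, Col1a2 and Col3a1 among them are also in the list of genes raised in EMT, and Pdgfrb in that of EMT-inducing signals below. The sum of all fibroblast markers was 224 to 235 CPM in KO and 516 to 531 CPM in WT libraries. Most of that difference lay in Col1a1, at 107.9 CPM in KO and 352.9 CPM in WT.

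**Figure D5:**
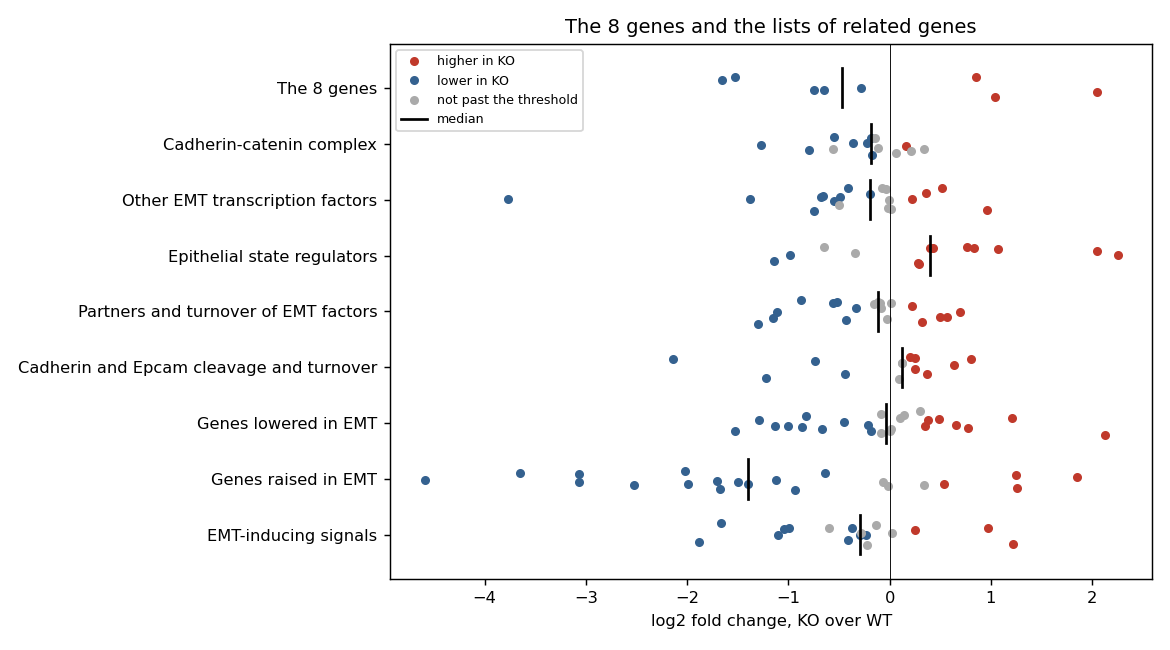
Log2 fold change, KO over WT (x axis), of the 8 genes and of the tested genes of 8 related lists (y axis), coloured by whether they passed the threshold, with each list's median as a black bar. The median lies at -1.4 for genes raised in EMT and at 0.39 for regulators of the epithelial state.

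Inside the cell, cadherins are tied to actin by catenins. Of 14 tested genes of this complex, 7 fell, 1 rose and 6 did not pass (median -0.18), a called share of 57.1% against 68.6% of all genes. Ctnnb1, beta-catenin, fell by 0.22 (SE 0.027) and Ctnna1, alpha-catenin, by 0.19 (SE 0.033), small changes like that of Cdh1. Vcl, vinculin, which strengthens junctions under tension, fell by 1.27 (SE 0.041), and Nectin2, an adhesion protein of the same junctions, by 0.80 (SE 0.050). Antisense exons overlap 25.5% of the exon bases of Vcl and 14.6% of those of Ctnnb1. The single rise, Plekha7 at 0.16 (SE 0.060), had overlapping groups and passed neither in DESeq2 nor without KO replicate 1 or WT replicate 2.

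Enzymes and partners that cleave or bind the surface proteins moved both ways, with 6 of 13 tested rising and 4 falling (median 0.13), a called share of 76.9% against 68.6% of all genes. Among the gamma-secretase genes, which release the inner parts of Cdh1, Cdh2 and Epcam, Psen2 rose by 0.80 (SE 0.13), Psenen by 0.36 (SE 0.087) and Ncstn by 0.25 (SE 0.047), and Aph1a at 0.13 did not pass. Adam15 rose by 0.63 (SE 0.048), with 20.6% of its exon length covered from the other strand. Fhl2, which binds the released tail of Epcam, fell by 2.14 (SE 0.16), Mmp14, a membrane protease, by 1.22 (SE 0.072) and Furin, which trims the cadherin precursor, by 0.74 (SE 0.063).

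Among 19 tested further transcription factors linked to EMT, 4 rose and 9 fell (median -0.19), a called share of 68.4% against 68.6% of all genes. Id2, an inhibitor of E-box binding helix-loop-helix proteins, rose by 0.96 (SE 0.050), whereas the related Id1 fell by 0.55 (SE 0.050) and Id3 by 0.66 (SE 0.044). Hmga2, a chromatin protein, fell by 0.75 (SE 0.042) and Sox4 by 0.49 (SE 0.042), with 54.6% of the exon length of Sox4 covered from the other strand. Of the paralogs of the 8 genes, Twist2 rose by 0.52 (SE 0.21), with 46.5% of its exon length covered from the other strand, and Snai3 at -0.01 did not pass.

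Proteins that work with the Snai and Zeb factors or remove them changed in 13 of 19 tested genes, 5 higher and 8 lower (median -0.11), a share of 68.4% against 68.6% of all genes. Ajuba, a bridge between Snai1 and its corepressors, fell by 1.31 (SE 0.043), the corepressor Ctbp2, a partner of Zeb proteins, by 1.12 (SE 0.067), and Hdac1 by 0.56 (SE 0.048). Of the ubiquitin ligase genes, Fbxl14, which marks Snai and Twist proteins for breakdown, fell by 1.16 (SE 0.094), while Btrc, which does so for phosphorylated Snai1, rose by 0.57 (SE 0.082). Kdm1a, the demethylase recruited by Snai1, stood at -0.03 and Gsk3b, the kinase that marks Snai1, at 0.02, and neither passed the test. Protein levels were not measured.

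Of 17 tested genes of EMT-inducing signals, 3 rose and 9 fell (median -0.29), a called share of 70.6% against 68.6% of all genes. The ligand Tgfb2 fell to 28.01 ± 0.970 CPM in KO, against 89.05 ± 6.95 CPM in WT (SD, n = 3 each), a log2 fold change of -1.67 (SE 0.075). Its receptor Tgfbr2 fell by 1.04 (SE 0.16), and Pdgfb, a growth factor, by 1.88 (SE 0.14). Pdgfra, a receptor that also marks primitive endoderm, rose by 1.22 (SE 0.054). Ilk, a kinase of integrin adhesions, was at -0.998 (SE 0.047), and antisense exons overlap 89.7% of its exon bases. The 6 loci of miR-200 and miR-205, microRNAs that repress Zeb1 and Zeb2, had 0 counts in all 6 libraries, which allows up to 0.386 CPM for 3 counts in the smallest library and says nothing of the mature microRNAs.

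Neural crest, a tissue that uses Snai2, Twist1 and Zeb2, was followed by 7 markers. Of the 6 tested by edgeR, 1 (16.7%, against 68.6% of all genes) fell, Ets1 by 1.65 (SE 0.072), and 0 rose, also at an unadjusted p under 0.05 and by DESeq2, while without KO replicate 3, 1 was called higher. Sox10, which defines neural crest, was at 1.67 ± 0.735 CPM in KO and 0.858 ± 0.321 CPM in WT (SD, n = 3 each) and did not pass. The sum of the 7 was 72.8 to 75.8 CPM in KO and 126 to 140 CPM in WT libraries. Without Ets1, left out after seeing the data, it was 44.2 to 49.5 CPM in KO and 41.7 to 50.8 CPM in WT, and the groups overlapped. Most of that remainder was Erbb3, at 31.53 CPM in KO and 32.33 CPM in WT, so the sum says little about the scarcer markers.

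Genes with the pattern most like each surface gene were found by the Euclidean distance of log2 CPM, centred on each gene's mean over the 6 libraries, among 11074 genes. Among those nearest to Cdh1 were Eif5b and Dhx16 (distances 0.0387 and 0.0438). Nearest to Cdh2 were Egfr, Flt1 and Ncoa5 (0.141 to 0.146), and nearest to Epcam were Bbip1, Gcfc2 and Rffl (0.0736 to 0.0976). With 2 groups of 3 libraries this likeness mostly restates the fold change, and 46, 86 and 20 genes lay within 2 times the smallest distance for Cdh1, Cdh2 and Epcam.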

How the data were processed

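The authors deposited raw, unscaled counts of reads for each Ensembl gene, 1 table per library. Per the submitters' processing notes, HISAT2 2.1.0, HTSeq 0.9.1 and DESeq2 1.18.1 were used on build mm10. Annotation release, read layout and strand setting are not given in the sources used here. HTSeq's tallies of reads in no gene were left out, among them reads over no feature, 42.3 to 43.5% of each library. Symbols, positions and exon lengths came from GENCODE M21 (GRCm38) and matched 52403 of 52636 identifiers.

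KO was set against WT over all 6 libraries in edgeR 4.0.16 (R 4.3.3), with no covariate, after filterByExpr with a minimum count of 10 and TMM scaling. The quasi-likelihood p was adjusted by Benjamini-Hochberg over all 15816 genes, with a threshold of 0.05. The procedure was also run on simulated data, where it recovered 76% of 50 genes changed 1.5-fold and 98% of 50 changed 4-fold. That simulation changed far fewer genes than changed here and gave every gene the same spread, so it does not test the calls in these data. Each SE is the absolute log2 fold change divided by the root of its F. CPM uses TMM-scaled library sizes, and TPM divides counts by exon length. All adjusted p-values quoted are from this fit unless another is named. Lists have no test.

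The 8 genes and the lists were chosen with earlier results of these data known. Named genes are all 8, up to 4 per list with the smallest adjusted p and groups that do not overlap, and others by value. Alternatives were RLE and upper-quartile scaling, DESeq2 1.42.0, limma-voom (limma 3.58.1), a block for the replicate number, filters of 1 count in total or of CPM 1 or more in 3 libraries, each library left out and, chosen after seeing the data, ribosomal RNA locus and mitochondrial genes left out, the longest coding transcript as length, and neural crest markers without Ets1. No 2 replicates matched within sampling noise, with a chi-square per degree of freedom of 1.9 to 7.07. A few genes under the naming rule are not reported here.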

Additional observations from a re-analysis of the deposited data

How the results depend on the processing

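Each of the 8 genes kept its direction and stayed past the threshold in all 14 alternatives, with log2 fold changes of -0.30 to -0.25 for Cdh1, -1.58 to -1.48 for Cdh2, 1.01 to 1.09 for Epcam, 0.81 to 0.89 for Snai1, 1.89 to 2.28 for Snai2, -0.74 to -0.57 for Zeb1, -1.71 to -1.61 for Zeb2 and -0.90 to -0.65 for Twist1, and a largest adjusted p of 0.000882, for Twist1. Of all genes, 9923 changed by DESeq2 and 11424 with no filter, and 10359 to 10585 with 1 library left out. The split was 5769 higher and 5104 lower with upper-quartile scaling, which moved the median of all genes to 0.046. The log2 difference in the Cdh1 to Cdh2 ratio was 1.19 to 1.28 with 1 library left out, and with transcript lengths the ratio was 7.7 ± 0.353 in KO and 3.27 ± 0.207 in WT (SD, n = 3 each), and the share of Snai1 and Snai2 was 76.0% in KO and 45.1% in WT.

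Same-numbered libraries did not deviate together, with correlations of 0.0178, 0.0071 and -0.00848 for numbers 1 to 3, and not every library correlated best with its own number. With the replicate block 10862 genes changed, and Cdh1, the smallest change of the 8, was at -0.29 (edgeR adjusted p = 5.36e-10).

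Small list counts moved by over 1.5 times in places. The catenin list had 1 riser, 0 by DESeq2 and without KO replicate 1 or WT replicate 2, 2 with no filter and 3 with upper-quartile scaling. The endoderm list had 2 falling, 1 by DESeq2 and without KO replicate 1, KO replicate 2 or WT replicate 2. Reads per library limit Snai2 and Twist1 most, at 29 to 172 and 71 to 155 reads.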

Other observations

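Markers of other cell types that share these adhesion genes were also counted. Of 9 tested genes of pluripotent stem cells, which carry Cdh1 and Epcam, 7 fell and 2 rose, and their sum was 513 to 525 CPM in KO and 775 to 807 CPM in WT libraries. Nanog fell by 2.32 on the log2 scale (SE 0.054), while Tfcp2l1 rose by 0.74 (SE 0.050) and Pou5f1, at 0.12 (SE 0.049), had overlapping groups. The count of 2 that rose was 1 by DESeq2 and without KO replicate 1 or 2 or WT replicate 1 or 3. Of 6 tested trophoblast markers, 5 fell and 1 rose, with Krt7 at -1.94 (SE 0.13), and the count that rose was 0 by DESeq2, with no filter, and without KO replicate 1 or 3 or WT replicate 1 or 3. Of 4 tested mesoderm markers, 1 rose, Foxf1 by 0.80 (SE 0.12), and 1 fell, Hand1 by 0.49 (SE 0.099), and with no filter 2 fell. Of 4 tested neuron markers, Map2 rose by 1.63 (SE 0.17) and Tubb3 and Stmn2 fell by 4.92 (SE 0.15) and 0.25 (SE 0.067). The called shares were 100% for the pluripotency and trophoblast markers, 75% for neuron and 50% for mesoderm markers, against 68.6% of all genes. Hand1 is counted among both the trophoblast and the mesoderm markers.

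The CACCTG or CAGGTG E-box was found in 17.9% of 5118 promoter windows of genes higher in KO, 14.5% of 5031 of genes lower in KO and 16.8% of 3929 of genes that did not pass. These shares are a description, with no test.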
